A study of Homo sapiens with 18 samples.

Results

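RNA levels of the subunits of the constitutive proteasome and of its base chaperones were followed over 6 groups of KMS11 arrays. Members were all probes whose annotated symbol is PSMA, PSMB, PSMC or PSMD followed by a number, without the immunoproteasome subunits PSMB8, PSMB9 and PSMB10. The rule found 48 probes of 32 genes, and 42 probes of 31 genes passed the filter of a detection p-value under 0.01 on at least 3 arrays, among 13336 of 48803 probes that passed it in all. The 6 probes that did not pass were 1 of PSMA1, the PSMB11 probe (a subunit of the thymus proteasome), 1 of PSMC6 and 3 of PSMD12. Nearest to the threshold, the PSMC6 probe was detected on 1 array and the PSMA8 probe, which passed, on 11. PSMA7, PSMC5, PSMD7 and PSMD13 had no probe under their symbols. Of the 42 probes 38 were detected on all 18 arrays. The filtered members lie in the alpha ring (11 probes of 7 genes), the catalytic beta subunits (3 of 3), the other beta subunits (4 of 4), the base ATPases (7 of 5), the other base subunits (4 of 3), the lid (8 of 6) and the base chaperones (5 of 3).

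KMS11 is a human multiple myeloma line in which a translocation raises MMSET (symbol NSD2), a histone methyltransferase. In the first system the cells carried an inducible shRNA against the 5' part of MMSET and were kept without doxycycline (no DOX) or with it (+DOX). In the second, KMS11 cells labelled as MMSET knock-outs were infected with a retrovirus that held the empty vector (DSRed), wild-type MMSET II, MMSET II with the F1177A change, which the labels call active, or MMSET II with the Y1118A change, which the labels call inactive. Each group has 3 arrays. The labels name them triplicates and say nothing of separate cultures, and every p-value here therefore reflects array-to-array spread that may be purely technical. No group here has doxycycline without the hairpin, and the sources used here do not say whether the lines are single clones. Each array reads the RNA of a whole culture, so fewer cells with a transcript and less RNA per cell cannot be told apart.

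The proteasome degrades proteins tagged with ubiquitin. Its core is a stack of rings of alpha and beta subunits with the cutting sites inside, and its cap has a base, whose ATPases unfold the substrate, and a lid, which removes the ubiquitin chain. Plasma cells make large amounts of antibody and lean heavily on this machine, and drugs that block the PSMB5 site are used against myeloma.

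Values are log2 intensities after background correction and quantile normalisation, differences are log2 differences between group means with their standard error (SE), and a probe was called at a Benjamini-Hochberg adjusted p under 0.05 over all 13336 probes in limma. Arrays detected 10731 to 12170 probes each, and correlations within a group ran from 0.974 to 0.997. Their brightness, taken as the 95th percentile of intensity, differed by group: 241.5 to 349.4 for no DOX, 430.3 to 620.7 for +DOX, 368.5 to 493.1 for F1177A, 621.9 to 889.5 for MMSET II and 746.5 to 775 for Y1118A. DSRed replicate 3 (1033) stood apart from the other DSRed arrays (491.4 and 453.5). The only NSD2 probe above background of 4 read 6.47, 6.71 and 6.73 without doxycycline and 5.94, 5.999 and 5.87 with it, lower by 0.70 (SE 0.133, limma adjusted p = 0.000408). In the repletion cells it read between 5.42 and 5.93 on all 12 arrays, was detected on each of them, and did not pass the test against DSRed for any construct. No source used here says whether it lies in the constructs. Of 9 plasma cell markers 7 were detected on all arrays and CD38 on none. Of their 13 filtered probes, 7 were higher and 2 lower with +DOX (median 0.38), 69.2% called against 40.6% of all probes. Against DSRed, 0 were higher and 7 lower with MMSET II (median -0.34), 53.8% against 31.5%. The counts against DSRed were 0 and 4 with F1177A (median -0.33), 30.8% against 19.6%. With Y1118A against DSRed they were 1 and 6 (median -0.34), 53.8% against 26.2%. For MMSET II against Y1118A they were 2 and 2 (30.8% against 16.7%), and for F1177A against Y1118A 4 and 2 (46.2% against 35.3%). For F1177A against MMSET II they were 3 and 2, and the 38.5% called lie at the background of 38.1%. SDC1, the plasma cell surface marker CD138, read 9.99 to 11.24 on the hairpin arrays and 4.58 to 6.47 on the repletion arrays. The summed intensity of the list was 14501.7 to 21472.7 for no DOX, 24564.7 to 37564.9 for +DOX, 23236.6 to 54713.5 for DSRed, 23273.9 to 34896.9 for MMSET II, 16945.8 to 21359.3 for F1177A and 26983.5 to 28677.3 for Y1118A. The B cell and T cell markers with a probe were detected on none. Of 3 epithelial markers KRT8 was detected on no array, and their summed intensity was 571.3 to 759.7 for no DOX, 934.3 to 1527.2 for +DOX, 10.2 to 34.4 for DSRed, 129.1 to 215.7 for MMSET II, 50.8 to 70 for F1177A and 42.4 to 48.8 for Y1118A. The part of these markers in the results was not tested.

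Of the 42 proteasome probes, 22 were higher with MMSET II than with DSRed, 25 were lower with F1177A than with MMSET II and 19 lower with F1177A than with Y1118A. With MMSET II against DSRed, the 22 called higher are 52.4%, against 16% of all 13336 probes, and 2 (4.76%) were lower, against 15.5%, so that 57.1% were called in either direction where the background was 31.5%. With F1177A against MMSET II, 25 (59.5%) were lower, against 19.8% of all probes, and 2 (4.76%) higher, against 18.2%, where 38.1% of all probes were called. With F1177A against Y1118A, 19 (45.2%) were lower, against 18.5%, and 0 higher, against 16.7%, where 35.3% of all were called. With Y1118A against DSRed 13 were higher, against 14% of all probes, and 0 lower, against 12.2%, where 26.2% of all were called. With +DOX against no DOX 12 (28.6%) were higher, against 21.3%, and 5 (11.9%) lower, against 19.3%, and the 40.5% called in either direction lie at the background of 40.6%. With F1177A against DSRed 0 were higher, against 10.6%, and 4 (9.52%) lower, against 8.98%, where 19.6% of all were called. With MMSET II against Y1118A 3 (7.14%) were higher, against 8.29%, and 1 (2.38%) lower, against 8.43%, where 16.7% of all were called. The median difference of the 42 probes was 0.30 for MMSET II against DSRed, 0.19 for Y1118A against DSRed, -0.10 for F1177A against DSRed, -0.29 for F1177A against Y1118A, -0.35 for F1177A against MMSET II, 0.10 for MMSET II against Y1118A and 0.12 for +DOX against no DOX. Without 1 array some of these medians were smaller in size: -0.04 for F1177A against DSRed without DSRed replicate 3, 0.05 and 0.06 for MMSET II against Y1118A without MMSET II replicate 1 and Y1118A replicate 2, and 0.07 for +DOX without no DOX replicate 3. The medians over all probes lay between -0.03 and 0.02 in these comparisons. Comparisons with a group in common share its arrays and are not independent.

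**Figure D1:**
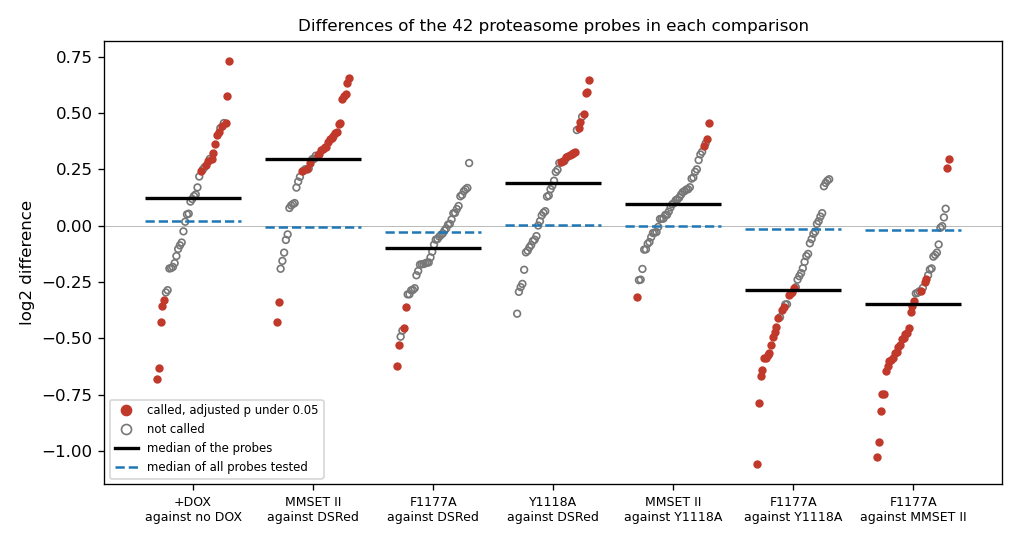
Log2 difference of each of the 42 proteasome probes (vertical axis) in each of the 7 comparisons (horizontal axis), with called probes filled, the median of the probes as a solid line and that of all 13336 probes as a dashed line. The probes sit mostly above 0 for MMSET II against DSRed (median 0.30) and mostly below it for F1177A against MMSET II (median -0.35).

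Over the 7 comparisons, 7 of the 42 probes were called in none and 9 in 5. The genes with no call at all were PSMB2, PSMB4, PSMB5 and PSMD8. The range between the highest and the lowest of the 6 group means had a median of 0.749 over the members and 0.868 over all probes, a description with no test.

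Promoters are shown for 4 genes that span the patterns described below: PSMD14, which had the largest difference of any member, PSMC3 and PSMD1, whose calls with MMSET II against DSRed held under every alternative tried, and PSMB5, which was called nowhere. RefSeq promoters on GRCh38.p14, from 250 bases before to 50 after the start, were found for 27 of the 31 genes (32 promoters), and not for PSMB1, PSMB6, PSMB7 and PSMD4. Capitals mark matches on either strand to CCAAT, the motif of NF-Y, to CCGGAAG, an ETS motif, and to TGACNNNGC or TGAGNNNGC, the forms of the antioxidant response element core that NFE2L1 and NFE2L2 bind with small Maf proteins. Each was read 5′ to 3′ on the strand of its gene.
PSMD14, chr2:161308175-161308474, plus strand: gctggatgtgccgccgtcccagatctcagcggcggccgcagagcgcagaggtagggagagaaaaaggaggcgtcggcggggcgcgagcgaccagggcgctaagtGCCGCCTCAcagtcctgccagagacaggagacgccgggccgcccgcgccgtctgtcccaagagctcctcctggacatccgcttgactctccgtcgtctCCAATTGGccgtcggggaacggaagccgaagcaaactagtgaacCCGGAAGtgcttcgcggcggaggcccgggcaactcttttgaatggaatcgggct
PSMC3, chr11:47426390-47426689, minus strand: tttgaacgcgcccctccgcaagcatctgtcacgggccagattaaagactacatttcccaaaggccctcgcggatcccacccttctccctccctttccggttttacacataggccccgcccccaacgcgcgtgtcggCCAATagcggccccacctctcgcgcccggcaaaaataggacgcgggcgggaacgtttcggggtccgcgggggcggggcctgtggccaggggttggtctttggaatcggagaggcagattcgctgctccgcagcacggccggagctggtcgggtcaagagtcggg
PSMD1, chr2:231056617-231056916, plus strand: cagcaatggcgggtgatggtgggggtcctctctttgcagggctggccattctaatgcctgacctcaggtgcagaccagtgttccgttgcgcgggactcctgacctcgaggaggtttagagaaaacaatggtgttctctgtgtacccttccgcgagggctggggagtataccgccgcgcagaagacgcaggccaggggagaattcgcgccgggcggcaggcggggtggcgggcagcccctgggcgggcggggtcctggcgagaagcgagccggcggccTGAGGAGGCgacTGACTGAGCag
PSMB5, chr14:23034851-23035150, minus strand: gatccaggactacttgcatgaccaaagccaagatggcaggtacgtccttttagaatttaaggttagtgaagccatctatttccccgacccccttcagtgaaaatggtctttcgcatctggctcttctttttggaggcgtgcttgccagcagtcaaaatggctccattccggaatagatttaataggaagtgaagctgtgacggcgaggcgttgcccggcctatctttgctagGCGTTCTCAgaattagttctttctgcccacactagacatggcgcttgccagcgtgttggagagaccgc
PSMD14 holds CCAAT overlapping its own reverse complement, 1 CCGGAAG close to the start and 1 TGAGNNNGC. PSMC3 holds a single CCAAT, PSMD1 holds 1 TGACNNNGC and 1 TGAGNNNGC, and this PSMB5 promoter, 1 of 2 listed, holds 1 TGAGNNNGC. The PSMB5 promoter not shown holds 1 CCAAT and 1 TGAGNNNGC. PSMD3, a member called lower with +DOX and not shown, holds 1 CCAAT and 2 TGACNNNGC. Among the 32 promoters CCAAT was in 14 (43.8%, against 34.6% of all 35116 RefSeq promoters of this length), CCGGAAG in 10 (31.2% against 10.3%), TGACNNNGC in 8 (25% against 13.3%) and TGAGNNNGC in 11 (34.4% against 18.3%). These matches describe letters only, and binding was not measured.

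Of the catalytic beta subunits, PSMB5 was called in 0 of the 7 comparisons, PSMB6 in 3 and PSMB7 in 2. PSMB5, the chymotrypsin-like site, read 9.43, 9.74 and 9.51 for no DOX, 9.61, 9.68 and 9.71 for +DOX, 9.41, 9.44 and 9.20 for DSRed, 9.22, 9.39 and 9.31 for MMSET II, 9.18, 9.44 and 9.27 for F1177A, and 9.36, 9.24 and 9.23 for Y1118A. All 4 repletion groups overlap, and no difference between them exceeded 0.07 in size (SE 0.101). PSMB6, the caspase-like site, read 10.32, 10.08 and 10.27 for no DOX, 10.48, 10.71 and 10.36 for +DOX, 10.25, 10.25 and 10.09 for DSRed, 10.49, 10.59 and 10.56 for MMSET II, 10.25, 10.33 and 10.40 for F1177A, and 10.61, 10.49 and 10.45 for Y1118A. All MMSET II and Y1118A arrays lay above all DSRed arrays, by 0.35 (SE 0.0958, limma adjusted p = 0.00861) and 0.32 (limma adjusted p = 0.0188), and the +DOX arrays lay above the no DOX arrays by 0.30 (limma adjusted p = 0.0188). The Y1118A call was lost without Y1118A replicate 1 (adjusted p = 0.0885), and the +DOX call without no DOX replicate 2 (0.0906), without +DOX replicate 2 (0.129) or when only these 2 groups were fitted (0.103). PSMB7, the trypsin-like site, read 11.23, 11.34 and 11.34 for no DOX, 11.43, 11.49 and 11.49 for +DOX, 10.72, 10.64 and 10.38 for DSRed, 10.75, 10.81 and 11.02 for MMSET II, 10.49, 10.64 and 10.68 for F1177A, and 10.62, 10.59 and 10.72 for Y1118A. It was higher with MMSET II than with DSRed by 0.28 (SE 0.0944, limma adjusted p = 0.0306). This call was lost without DSRed replicate 3 (0.123) or MMSET II replicate 3 (0.161). It was also lost with no filter (0.0975) or when only these 2 groups were fitted (0.107). PSMB7 was lower with F1177A than with MMSET II by 0.25 (limma adjusted p = 0.0427). That call was lost with the replicate number as a block (adjusted p = 0.0546) or with no filter (0.122). It was lost too without any 1 array of either group except MMSET II replicate 1 (0.0509 to 0.202).

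**Figure D2:**
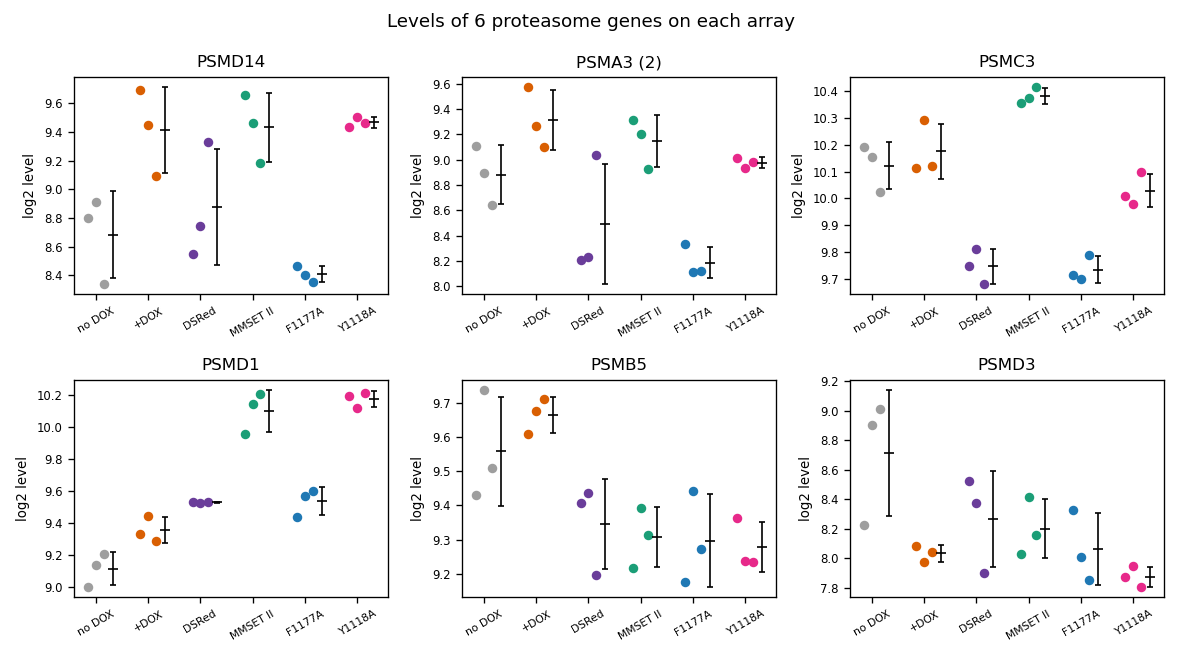
Log2 intensity of 6 probes on each of the 18 arrays (points, 3 per group) with the group mean and SD (bars), by group; PSMA3 (2) is probe ILMN_2387553, and the vertical axes differ and do not start at 0. PSMC3 is highest on the 3 MMSET II arrays, PSMD1 on the MMSET II and Y1118A arrays, and PSMB5 overlaps between all repletion groups.

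Between MMSET II and DSRed, called probes lay in every part of the complex. Of the base ATPases 4 of 7 probes were higher, of the other base subunits 4 of 4, of the lid 4 of 8 and of the alpha ring 5 of 11, and none of these was lower. PSMC3, a base ATPase, read 9.75, 9.81 and 9.68 with DSRed and 10.36, 10.37 and 10.41 with MMSET II. The groups are far apart next to their spread, with PSMC3 1.55-fold higher (0.63, SE 0.0807, limma adjusted p = 6.51e-06). PSMD1, the large scaffold of the base, read 9.53 on each of the 3 DSRed arrays and 9.96, 10.14 and 10.21 with MMSET II, higher by 0.57 (SE 0.0885, limma adjusted p = 5.7e-05). The other base subunits with calls were PSMC1 (0.37), PSMC2 (0.34), PSMC6 (0.32), the scaffold PSMD2 (0.42) and the ubiquitin receptor PSMD4 (0.25 and 0.31 at its 2 probes). In the alpha ring PSMA3 probe ILMN_2387553 read 8.21, 8.23 and 9.04 with DSRed and 9.31, 9.20 and 8.92 with MMSET II. DSRed replicate 3 lies inside the MMSET II range, and the difference was 0.65 (SE 0.18, limma adjusted p = 0.00913). The other PSMA3 probe, ILMN_2318011, read 7.53, 7.24 and 7.65 with DSRed and 7.91, 7.73 and 7.66 with MMSET II and was not called. PSMA2 read 6.74, 6.52 and 7.24 with DSRed and 7.67, 7.41 and 7.17 with MMSET II, again overlapping at DSRed replicate 3 (0.58, SE 0.182, limma adjusted p = 0.0191). Both alpha-ring calls were lost without DSRed replicate 1 (PSMA3 0.0612, PSMA2 0.0666), DSRed replicate 2 (0.0609 and 0.119) or MMSET II replicate 1 (0.0501 and 0.107). They were also lost when only these 2 groups were fitted (0.0526 and 0.0564), that of PSMA2 also with no filter (0.0511). The PSMC3 and PSMD1 calls were kept in all 17 alternatives. The count of 24 called probes fell to 15 without DSRed replicate 2 or without MMSET II replicate 1. Of all probes 23.9% and 23.2% were then called, against 31.5% with all arrays.

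The lid deubiquitinase PSMD14 was higher with MMSET II than with DSRed by 0.56 (limma adjusted p = 0.0244), with 8.55, 8.75 and 9.33 on the DSRed arrays and 9.66, 9.46 and 9.18 on the MMSET II arrays, which overlap. This call was lost in a fit of these 2 groups alone (adjusted p = 0.0676), with no filter (0.0686) and without either of DSRed arrays 1 (0.144) and 2 (0.0917) or of MMSET II arrays 1 (0.119) and 2 (0.0639). The other called lid probes were those of PSMD6 (0.38 and 0.41) and 1 of PSMD12 (0.45). Of the non-catalytic beta subunits, PSMB3 was higher by 0.45 (limma adjusted p = 0.000357) and PSMB1 by 0.24. The base chaperones split. PSMD5 was higher by 0.40, while PSMD10, also known as gankyrin, was lower. PSMD10 probe ILMN_1776102 read 9.67, 9.67 and 9.76 with DSRed and 9.28, 9.29 and 9.25 with MMSET II, a fall with no overlap (-0.43, SE 0.0923, limma adjusted p = 0.00144). Probe ILMN_2383435 read 7.84, 7.87 and 7.88 against 7.49, 7.62 and 7.47 (-0.34, limma adjusted p = 0.0201), a call lost without DSRed replicate 2 (0.054) and without either of MMSET II replicates 1 (0.0691) and 3 (0.0695). The third PSMD10 probe, dim and undetected on 1 F1177A array, was called in no comparison.

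With Y1118A against the same DSRed arrays, 13 probes were higher and 0 lower. PSMD1 was the largest, with 10.20, 10.12 and 10.21 on the Y1118A arrays against 9.53 on each DSRed array, a difference of 0.65 (SE 0.0885, limma adjusted p = 3.57e-05) that was called in every alternative. PSMD14 read 9.43, 9.50 and 9.46 with Y1118A, all above the 3 DSRed arrays (0.59, SE 0.182, limma adjusted p = 0.0215). This call was lost without any 1 array of either group except DSRed replicate 3 (adjusted p 0.0511 to 0.137). PSMA6 probe ILMN_2151818 was higher by 0.59, PSMA5 by 0.50, PSMB3 by 0.46 and PSMC1 by 0.32. The count of 13 fell to 8 without DSRed replicate 1, DSRed replicate 2, Y1118A replicate 1 or Y1118A replicate 3. It rose to 23 (20 higher, 3 lower) without DSRed replicate 3. Of all probes 16.2%, 16.4%, 18.4% and 17.2% were called where it fell and 37.6% where it rose, against 26.2% with all arrays.

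The direct comparison of MMSET II with Y1118A left 4 called probes. PSMC3 read 10.01, 9.98 and 10.10 with Y1118A, between the DSRed and the MMSET II arrays and apart from both. MMSET II lay above Y1118A by 0.35 (SE 0.0807, limma adjusted p = 0.00468) and Y1118A above DSRed by 0.28 (limma adjusted p = 0.0146), a call lost with no filter (0.085) and without Y1118A replicate 3 (0.0739). PSMC4 probe ILMN_2287888, a base ATPase, read 9.13, 9.44 and 9.27 with MMSET II and 8.88, 8.93 and 8.67 with Y1118A (0.45, SE 0.125, limma adjusted p = 0.0158), without overlap. PSMD6 probe ILMN_1779633, in the lid, read 8.48, 8.49 and 8.48 against 8.08, 8.08 and 8.13 (0.38, limma adjusted p = 0.0146). PSMD10 probe ILMN_1776102 was lower with MMSET II, with 9.60, 9.56 and 9.60 on the Y1118A arrays (-0.32, limma adjusted p = 0.0222). The other probes of PSMC4, PSMD6 and PSMD10 were not called here. PSMD6 probe ILMN_2155998 overlapped, at 9.72, 9.58 and 9.53 with MMSET II and 9.53, 9.39 and 9.62 with Y1118A. The PSMC4 call was lost without MMSET II replicate 2 (0.0903) or Y1118A replicate 3 (0.093), that of PSMD6 without Y1118A replicate 1 (0.0541) or 2 (0.0526), and that of PSMD10 without any 1 array of either group (0.0535 to 0.0737). The count of 4 fell to 2 without MMSET II replicate 2 or without any 1 Y1118A array. Of all probes 11.9% were called without the first and 10.9% to 11.8% without a Y1118A array, against 16.7% with all arrays.

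Most calls with F1177A were made against the other forms of MMSET II. Against MMSET II all 7 probes of base ATPases were lower, as were 7 of 11 in the alpha ring, 5 of 8 in the lid and 3 of 4 of the other base subunits. PSMD14 read 8.46, 8.40 and 8.35 with F1177A, below every MMSET II and Y1118A array. The fall was 1.03 against MMSET II (SE 0.182, limma adjusted p = 0.000275) and 1.06 against Y1118A (limma adjusted p = 0.000285), or 2.04-fold and 2.08-fold, the largest difference of any member in the 7 comparisons. With array brightness as a covariate, an alternative given with the brightness values, these 2 differences were smaller, at -0.44 (limma adjusted p = 0.0271) and -0.46 (0.0369). PSMA3 probe ILMN_2387553 read 8.33, 8.11 and 8.12, lower than with MMSET II by 0.96 (SE 0.18, limma adjusted p = 0.000453) and than with Y1118A by 0.79 (limma adjusted p = 0.00271). With the brightness covariate the first was at -0.31 (limma adjusted p = 0.0204) and the second was not called. PSMC3 read 9.71, 9.70 and 9.79, lower than with MMSET II by 0.65 (limma adjusted p = 8.29e-06). PSMD1 read 9.44, 9.57 and 9.60, lower than with MMSET II by 0.57 (limma adjusted p = 8.01e-05) and than with Y1118A by 0.64 (limma adjusted p = 3.34e-05). Against DSRed, PSMC3 was at -0.01 (SE 0.0807) and PSMD1 at 0.01 (SE 0.0885) with F1177A, and neither was called. PSMD10 was the only gene higher with F1177A than with MMSET II, with 9.45, 9.62 and 9.52 at probe ILMN_1776102 (0.26, limma adjusted p = 0.0346) and 7.70, 8.001 and 7.76 at probe ILMN_2383435 (0.30, limma adjusted p = 0.034). Without F1177A replicate 2 (0.139 and 0.185), and without either of MMSET II replicates 1 (0.0814 and 0.103) and 3 (0.0826 and 0.0977), these PSMD10 calls were lost. The first was also lost without MMSET II replicate 2 (0.0685) or F1177A replicate 3 (0.0718). Both were lost under median scaling (0.238 and 0.0677) and with no filter (0.148 and 0.144), and the second with the brightness covariate (0.0793).

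Against DSRed, 4 probes were lower with F1177A and all but PSMD6 probe ILMN_1779633 (-0.36) are dim. The other PSMD6 probe, ILMN_2155998, is brighter and was not called. It read 9.12, 9.09 and 9.39 with DSRed and 9.26, 9.06 and 9.09 with F1177A. PSMA8, an alpha subunit known from the testis, read 6.18, 5.99 and 6.07 with DSRed and 5.81, 5.16 and 5.40 with F1177A, where it was detected on 2 of 3 arrays (-0.62, SE 0.167, limma adjusted p = 0.013). PSMD11, a scaffold of the lid, read 5.93, 5.82 and 6.01 with DSRed and 5.59, 5.38 and 5.19 with F1177A, also detected on 2 of 3 (-0.53, SE 0.126, limma adjusted p = 0.00608). Neither gene overlaps between the groups, and PSMD9, a base chaperone, was lower by 0.46. The PSMA8 call was lost without F1177A replicate 2 (adjusted p = 0.0837), and 1 probe was called without that array in place of 4. Of all probes 13.1% were then called, against 19.6% with all arrays.

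In the hairpin cells the members split, with 12 probes higher and 5 lower with +DOX. PSMD14 read 8.80, 8.91 and 8.34 for no DOX and 9.69, 9.45 and 9.10 for +DOX, which do not overlap, higher by 0.73 (SE 0.182, limma adjusted p = 0.00369) or 1.66-fold. PSMC2 read 10.17, 10.32 and 9.97 against 10.90, 10.72 and 10.57, higher by 0.58 (SE 0.105, limma adjusted p = 0.000265), a call kept in all 17 alternatives. The chaperone PSMD5 read 5.91, 5.95 and 5.95 against 6.24, 6.46 and 6.49 (0.46, limma adjusted p = 0.00393). Among the falls, the lid subunit PSMD3 read 8.23, 8.90 and 9.01 for no DOX and 8.08, 7.97 and 8.04 for +DOX, lower by 0.68 (SE 0.182, limma adjusted p = 0.00575), with no DOX replicate 1 close to the +DOX arrays. PSMC4 probe ILMN_2287888 read 9.52, 9.52 and 9.61 against 8.80, 8.88 and 9.08, lower by 0.63 (SE 0.125, limma adjusted p = 0.00059), and another PSMC4 probe was lower by 0.33. PSMA6 probe ILMN_1704094 read 9.98, 10.22 and 10.11 against 9.87, 9.81 and 9.56, lower by 0.36 (limma adjusted p = 0.0135), a call lost without no DOX replicate 2 (0.0576) or +DOX replicate 3 (0.0802). The other PSMA6 probe, ILMN_2151818, read 10.87, 10.89 and 10.81 against 10.85, 10.83 and 10.67 and was not called. The 2 filtered probes of the lid subunit PSMD12 disagree: ILMN_2368971 read 8.40, 8.48 and 8.11 against 8.86, 8.71 and 8.75 (0.44, limma adjusted p = 0.00521), and ILMN_1691428 read 11.60, 11.53 and 11.63 against 11.08, 11.29 and 11.11 (-0.43, limma adjusted p = 0.00308). No direction is given for PSMD12 here. When only the 2 hairpin groups were fitted, 9 probes were called (6 higher, 3 lower) in place of 17. Of all probes 24.9% were then called, against 40.6% in the main fit. The calls of PSMD5 (limma adjusted p = 0.0508) and of PSMA6 probe ILMN_1704094 (0.0566) were lost when only these groups were fitted. The PSMA6 call was also lost under median scaling (0.0593).

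Comparisons that share no array can be set side by side. Of the 12 probes higher with +DOX, 11 were also higher with MMSET II against DSRed, which is 91.7% of the first list and 50% of the second. Over all 13336 probes, 650 were in both lists, 22.9% of the 2843 and 30.4% of the 2139. Only PSMA4 of the first list was not in the second. Of the same 12 probes, 8 were higher with Y1118A against DSRed (66.7% of the first and 61.5% of the second list). Over all probes 566 were in both, 19.9% of the first list and 30.3% of the second. Both repletion comparisons share the DSRed arrays. Of the 22 probes higher with MMSET II against DSRed, 16 were lower with F1177A against Y1118A (72.7% of the first and 84.2% of the second). Over all probes 727 were in both, 34% of the first list and 29.4% of the second. Array brightness ran the same way in the pairs of comparisons with +DOX and opposite ways in the other pair, as did the calls. Its part in these overlaps was not tested. PSMA6 probe ILMN_1704094 was the 1 probe lower with +DOX and higher with MMSET II.

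Array brightness moved with these differences. The groups differed in mean brightness (log2 of the 95th percentile) by 0.752 for +DOX against no DOX, 0.30 for MMSET II and 0.315 for Y1118A against DSRed, -0.579 for F1177A against DSRed, -0.894 and -0.878 for F1177A against Y1118A and MMSET II, and -0.0154 for MMSET II against Y1118A. The sign is that of the members' median difference in all of these but the last. Within groups, 13 of the 42 probes had a positive and 4 a negative slope on brightness that passed the test (40.5%, against 29.2% of all probes). The slope was 0.74 per doubling of brightness for PSMA3 probe ILMN_2387553 and 0.67 for PSMD14, and it did not pass the test for PSMC3 (-0.05) or PSMD1 (-0.11). With brightness as a covariate, an alternative chosen after the data were seen, 25 probes were higher and 2 lower for MMSET II against DSRed, 14 and 0 for Y1118A against DSRed, 1 and 19 for F1177A against MMSET II, 0 and 9 for F1177A against Y1118A, and 8 and 4 for +DOX. No share of all probes is given here for most of these counts, which therefore cannot be set against the background. For F1177A against Y1118A 11% of all probes were called under the covariate, against 35.3% without it. Under it PSMD14 with +DOX was at 0.22 (limma adjusted p = 0.208), PSMD3 at -0.42 (0.141), PSMD12 probe ILMN_2368971 at 0.19 (0.178), and PSMA3 probe ILMN_2387553 for F1177A against Y1118A at -0.13 (0.432), all no longer called.

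**Figure D3:**
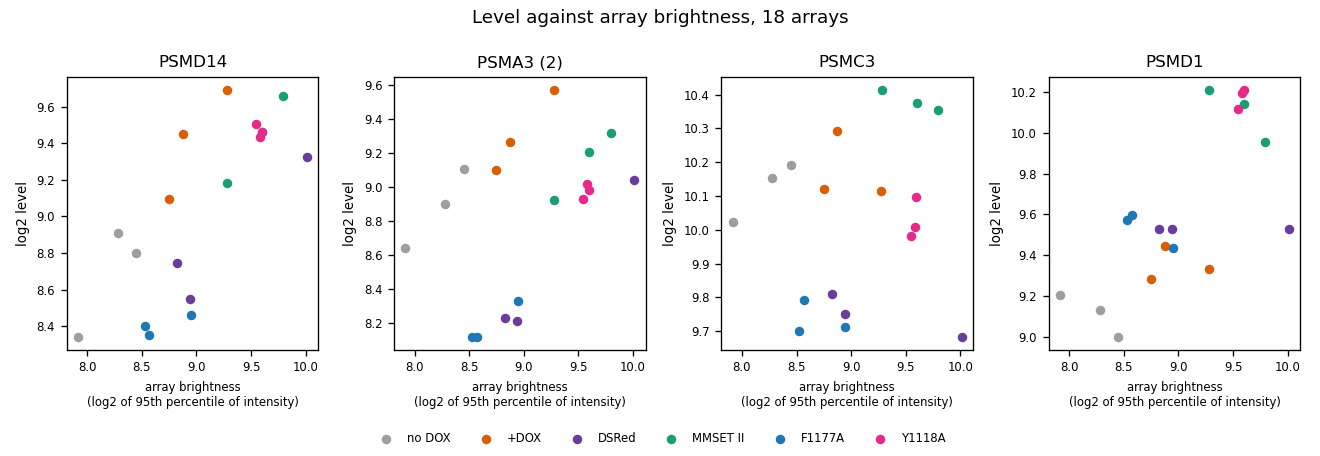
Log2 intensity of 4 probes (vertical axes, which differ) against the brightness of the array, the log2 of its 95th percentile of intensity (horizontal axis), for the 18 arrays, coloured by group; PSMA3 (2) is probe ILMN_2387553. PSMD14 and PSMA3 read higher on brighter arrays within most groups (slopes 0.67 and 0.74), while PSMC3 and PSMD1 separate by group with slopes of -0.05 and -0.11.

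Immunoproteasome subunits, the inducible counterparts of the catalytic subunits, were lower with +DOX. Of 8 probes of these subunits and of PSME1 and PSME2, which form the PA28 cap, 7 (87.5%) were lower, against 19.3% of all probes, and 0 higher (median -0.42). PSMB10 was lower by 0.90 (limma adjusted p = 1.7e-06), from 11.17, 11.18 and 11.30 to 10.30, 10.33 and 10.32, PSMB9 by 0.89 and PSMB8 probe ILMN_1767006 by 0.66. With F1177A against MMSET II 4 of the 8 (50%) were higher, against 18.2% of all probes, and 1 lower, with PSMB8 probe ILMN_2390299 at 0.82, PSMB10 at 0.30 and PSME2 at -0.59. With MMSET II against DSRed 1 was higher (PSME2, 0.39) and 2 lower, both of PSMB8. The 37.5% called there lie near the 31.5% of all probes. With Y1118A against DSRed 0 of the 8 passed the test, where 26.2% of all probes did.

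Assembly factors and other regulators of the proteasome, 12 genes with 17 probes, form the next list. With +DOX 9 probes (52.9%) were higher, against 21.3% of all, and 1 lower (median 0.37), led by the deubiquitinase USP14 (0.82), the nuclear cap PSME3 (0.65 and 0.61) and the ring chaperone PSMG1 (0.56), and PAAF1 was the 1 lower (-0.60). With MMSET II against DSRed 5 (29.4%) were higher, against 16% of all, and 0 lower (median 0.26), namely PSME3 (0.73 and 0.69), the core maturation factor POMP (0.62), 1 probe of SEM1 (0.33) and ADRM1 (0.26). With F1177A 9 (52.9%) were lower, against 19.8% of all, and 0 higher against MMSET II, with PSME3 at -0.94 and -0.85 and PSMG1 at -0.86 and -0.88, and 9 were lower, against 18.5% of all, and 0 higher against Y1118A. With Y1118A against DSRed 5 were higher, against 14% of all, and 0 lower. F1177A against DSRed had 2 lower (11.8%, against 8.98% of all probes) and 0 higher, with UCHL5 at -0.41 and ADRM1 at -0.35. MMSET II against Y1118A had 1 higher (5.88%, against 8.29% of all), a PSME3 probe at 0.34. Both shares lie near those of all probes.

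Several members differed in level between the hairpin and the repletion cells on every array. PSMA5, in the alpha ring, read 10.35 to 10.92 on the 6 hairpin arrays and 11.77 to 12.57 on the 12 repletion arrays. PSMB4, a non-catalytic beta subunit, read 11.61 to 11.85 and 12.48 to 12.83. PSMB7 went the other way, with 11.23 to 11.49 on the hairpin arrays and 10.38 to 11.02 on the repletion arrays. PSMA8 was detected on no hairpin array and on 11 of 12 repletion arrays. It thus passed the filter through the repletion arrays alone, and its separation is no independent result. The systems were not compared by the study's design, and differences in the cells, the infection and the handling of the arrays cannot be told apart.

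**Figure D4:**
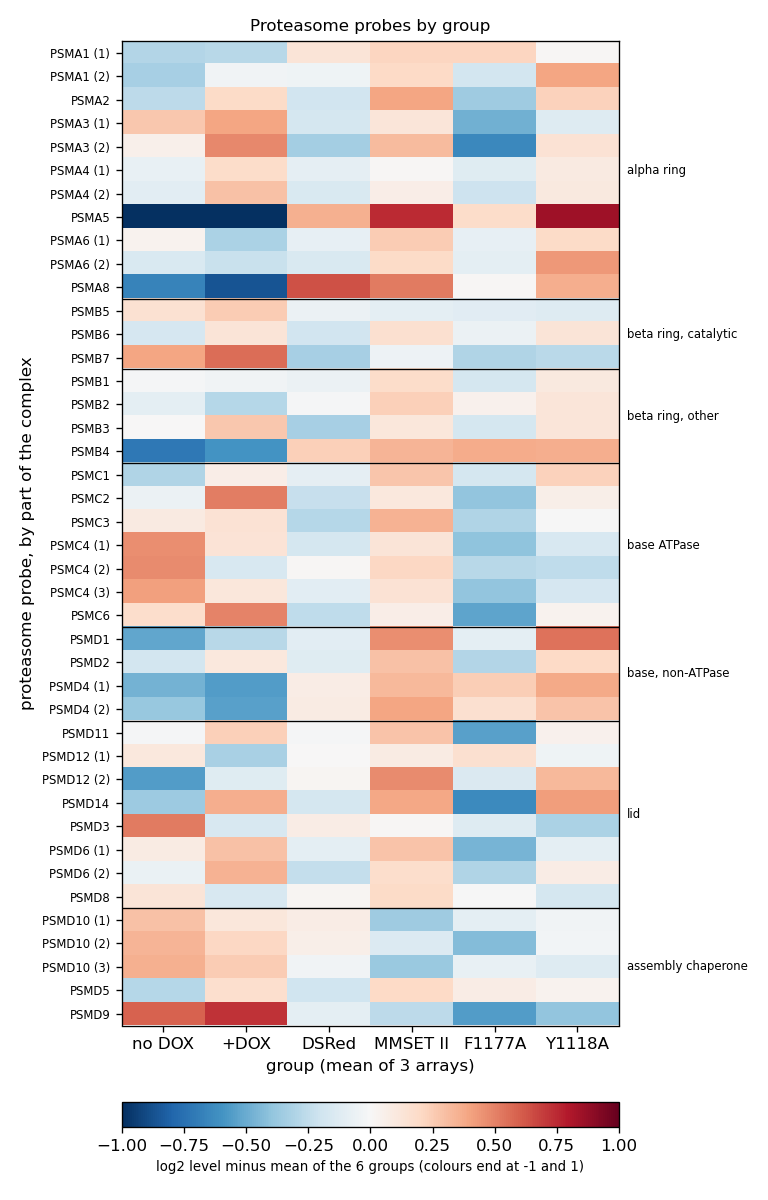
Mean log2 intensity of each of the 42 proteasome probes (rows, by place in the complex) in the 6 groups (columns), shown relative to the probe's mean over the groups; colours end at -1 and 1, which PSMA5 passes in the hairpin groups. The MMSET II and Y1118A columns are mostly above the F1177A and DSRed columns, while 2 of the 3 PSMD10 probes are lowest in the MMSET II column.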

How the data were processed

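Biotin-labelled cRNA was read on 18 Illumina arrays, per the labels' protocols. The deposited table gives a linear intensity for each probe and array. Since 31.1% of these are below 0, some background subtraction came before deposit, and no source used here describes it. It also gives a deposited detection p-value for each probe and array. The submitters' processing notes list GenomeStudio 1.5.4 and give it no role. The authors' series matrix, read as intensity, served as an alternative. Platform annotation gave 1 symbol for 27578 probes, several for 13 and none for 21212.

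Intensities were corrected by limma 3.58.1 (R 4.3.3) with normexp, negative controls inferred from detection p-values and an offset of 16, then quantile-normalised and put on the log2 scale. The offset makes differences of dim probes too small. Probes with a detection p-value under 0.01 on at least 3 arrays were kept. A single limma fit took in all 18 arrays, with 1 term for each of the 6 groups (12 residual degrees of freedom) and an intensity trend, and gave 7 two-sided comparisons with Benjamini-Hochberg adjustment over the 13336 probes. The procedure was tested on simulated data. The number of arrays limits the precision.

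Probes given array by array were PSMB5, PSMB6 and PSMB7 and, for each comparison, the called members with the largest difference: up to 4 each way for +DOX and for MMSET II against DSRed, and up to 2 elsewhere. Other called members are listed by their difference. Members, gene lists and tests were chosen with earlier results of these data known. PSMA5, PSMB4, PSMB3 and other values outside the rule were named after they were seen.

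Replicate numbers were checked as pairs by correlating deviations from the group means. The correlation was over 0.1 for every pair only between F1177A and MMSET II (0.283, 0.178 and 0.227). There the blocked value is given where it ends a call. The lowest correlations were -0.592 and -0.478, both for MMSET II against DSRed. Whether the numbers mark true pairs in any comparison is not known. Alternatives covered the offset, cyclic loess, median scaling, the series matrix, the filter, 1 probe per gene, a fit of 2 groups, array weights, the replicate block, leaving out each array and, added after the data were seen, brightness as a covariate and values relative to all probes.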

Additional observations from a re-analysis of the deposited data

How the results depend on the processing

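The members' median difference kept its sign in all 7 comparisons under each of the 17 alternatives run for it, also relative to the median of all probes. The counts of called probes moved more than the directions. With only the 2 compared groups in the fit, the total was 9 for +DOX, 15 for MMSET II against DSRed, 2 for F1177A against DSRed and 9 for MMSET II against Y1118A. Of all probes 24.9%, 28.4%, 15.5% and 35% were then called, against 40.6%, 31.5%, 19.6% and 16.7% in the main fit. With no filter the total was 13 for MMSET II, 2 for F1177A and 6 for Y1118A against DSRed, and 1 for MMSET II against Y1118A. Of all 48803 probes 7.22%, 4.16%, 5.32% and 3.68% were then called, against 31.5%, 19.6%, 26.2% and 16.7% in the main fit. With detection on all 18 arrays the total was 1 for F1177A against DSRed, where 18% of the probes tested were called. With array weights it was 13 (3 higher, 10 lower) for F1177A against DSRed, 31 (24 higher, 7 lower) for Y1118A against DSRed and 13 (10 higher, 3 lower) for MMSET II against Y1118A, where 39.7%, 65.3% and 39.4% of all probes were called. With the brightness covariate it was 9 for F1177A against Y1118A and 7 for MMSET II against Y1118A. Of all probes 11% and 25% were then called. Leaving out each array in turn gave 15 to 25 for MMSET II, 1 to 4 for F1177A and 8 to 23 for Y1118A against DSRed, and 2 to 3 for MMSET II against Y1118A. The shares of all probes called at the lowest counts and at 23 are given with the results above. The cause of these shifts was not tested, except that fewer arrays enter a fit of 2 groups or without an array.

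Of the 38 called differences of members given array by array, 6 of them chosen after their values were seen, 7 lost the call under median scaling, 14 with no filter, 7 with only 2 groups, 5 with the brightness covariate and 1 with the replicate block. None lost it with offset 50, cyclic loess, the series matrix, array weights or, where the probe was tested, detection on all arrays or 1 probe per gene. Median scaling lost PSMD11 (-0.32, adjusted p = 0.0649) and PSMA8 (-0.42, 0.0815) for F1177A against DSRed and PSMD5 with +DOX (0.24, 0.115). The losses named beside single probes in the results above are not all of their losses.

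Arrays of different groups share only a replicate number, also those of F1177A and MMSET II. With that number as a block (replicate block) 17 probes were called for +DOX, 24 for MMSET II, 4 for F1177A and 12 for Y1118A against DSRed, 4 for MMSET II against Y1118A, 20 for F1177A against Y1118A and 26 for F1177A against MMSET II. No share of all probes is given here for these counts, which therefore cannot be set against the background. The counts of 12 and 20 differ from the 13 and 19 of the main fit, so calls of other members changed too. Among the 38 called differences given array by array, the block changed only the call of PSMB7 for F1177A against MMSET II.

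Signs turned only for differences of PSMB5, PSMB6 and PSMB7 near 0, none called. PSMB5 gave 0.0169 for F1177A against MMSET II under cyclic loess, 0.0078 and 0.0196 for MMSET II against DSRed under median scaling and brightness, and -0.0601 and -0.16 for F1177A against Y1118A under the same. PSMB7 gave -0.0360, -0.0315 and -0.13 for F1177A against DSRed under median scaling, array weights and brightness, and -0.0062 for Y1118A against DSRed with array weights. Leaving out arrays gave PSMB5 ranges of -0.11 to 0.0060 (MMSET II against DSRed), -0.125 to 0.0115 (F1177A against DSRed), -0.0129 to 0.0741 (MMSET II against Y1118A), -0.0537 to 0.0800 (F1177A against Y1118A) and -0.0829 to 0.0508 (F1177A against MMSET II). It gave -0.0010 to 0.0778 for PSMB6 (MMSET II against Y1118A), and for PSMB7 -0.0737 to 0.10 (F1177A against DSRed), -0.0367 to 0.13 (Y1118A against DSRed) and -0.0744 to 0.0195 (F1177A against Y1118A). Dim probes such as PSMA8, PSMD9 and PSMD11 are limited by their signal over background.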

Other observations

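Of 8 probes of 7 genes that set the transcription of proteasome genes, 5 (62.5%) were called for F1177A against Y1118A, against 35.3% of all probes. The count was 3 (37.5%) for F1177A against MMSET II and for +DOX, against 38.1% and 40.6%, 2 (25%) for Y1118A against DSRed, against 26.2%, and 1 (12.5%) for MMSET II and for F1177A against DSRed, against 31.5% and 19.6%. NFE2L1, which raises subunit genes when the proteasome is blocked, read 9.53, 9.39 and 9.13 on the DSRed arrays. It read 8.23, 8.20 and 8.44 with MMSET II, 8.40, 8.41 and 8.55 with Y1118A and 8.82, 8.96 and 8.91 with F1177A, all below DSRed. It was lower than DSRed by 1.06 with MMSET II (limma adjusted p = 4.84e-05) and by 0.90 with Y1118A (0.000473), the groups in which subunit probes were higher. NFE2L1 was the 1 called probe of the list with MMSET II, and NFYC (-0.48) was the other called with Y1118A. With F1177A against DSRed 1 probe was lower (NGLY1, -0.52). With +DOX 1 was higher (NFE2L2, 0.77, limma adjusted p = 0.00371) and 2 lower, NGLY1 (-0.44) and NFYC (-0.34). F1177A had 2 higher and 1 lower against MMSET II and 2 higher and 3 lower against Y1118A. MMSET II against Y1118A had 0 calls, where 16.7% of all probes were called.

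Of 15 probes of 12 genes for ubiquitin and its delivery, 6 (40%) were higher with Y1118A against DSRed, against 14% of all probes, and 1 lower. The lower 1 was SQSTM1, a receptor that takes ubiquitin-tagged cargo to autophagy, with 10.32, 10.11 and 9.80 on the DSRed arrays and 9.20, 8.89 and 8.97 on the Y1118A arrays (-1.06, SE 0.216, limma adjusted p = 0.00147). It read 9.71, 9.46 and 9.59 with MMSET II, which did not pass the test against DSRed. The counts of higher and lower probes were 2 and 1 with +DOX (20% called, against 40.6% of all probes), 2 and 0 for MMSET II against DSRed (13.3% against 31.5%) and 2 and 1 for F1177A against DSRed (20% against 19.6%). They were 0 and 1 for MMSET II against Y1118A (6.67% against 16.7%), 2 and 7 for F1177A against Y1118A (60% against 35.3%) and 0 and 5 for F1177A against MMSET II (33.3% against 38.1%).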
